A study of Homo sapiens with 6 samples.

Results

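Gapmers are short antisense oligonucleotides with a DNA core, and they work through the enzymes described here. The gapmer pairs with its target RNA, RNase H cuts the RNA strand of the hybrid, and exonucleases then remove both fragments, from the new 5′ end or from the new 3′ end. RNase H1 is the enzyme generally credited with gapmer cleavage, while RNase H2, a complex of the catalytic subunit A with subunits B and C, also removes single ribonucleotides built into DNA. XRN2 is the nuclear and XRN1 the cytoplasmic 5′-to-3′ exonuclease, DXO is a decapping and 5′-to-3′ enzyme, and EXOSC10 and DIS3 are catalytic subunits of the RNA exosome, which digests RNA from the 3′ end. The genes were taken by name, 9 of the 53719 rows of the gene count table: RNASEH1, RNASEH2A, RNASEH2B, RNASEH2C, XRN1, XRN2, EXOSC10, DIS3 and DXO, the last under its older symbol DOM3Z.

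The cells were H9, an established human embryonic stem cell line grown in RSeT, a medium for a naive-type state. A gapmer against alpha satellite RNA (ALR, transcribed from centromeric repeats) was given to the 3 samples labelled Sense3a, b and c, called the knockdown libraries here, and a control gapmer to the 3 labelled Controla, b and c. Total RNA was sequenced 48 h after transfection. Both groups therefore carried a gapmer, no library without an oligonucleotide was analysed, and all 6 libraries come from 1 line. Nothing in the labels says that replicates were separate cultures, so p-values measure the spread between these libraries, which may be technical. Alpha satellite RNA itself was not analysed here, so the knockdown rests on the labels.

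Library totals ran from 25087629 to 36576752 counts. Knockdown library a stood apart in having counts in 29678 rows against 25898 to 26788 in the others, and values without it are given where they matter. In the edgeR test used below, leaving out knockdown library c changed the number of genes passing most, from 155 to 1309. Without library a the number was 102. The summed level of 6 pluripotency markers was 3316 to 3741 CPM (read counts divided by TMM-scaled library size) in knockdown and 3275 to 3324 CPM in control libraries. Counts were present in every library for 5 of these. SOX2 was listed at 0 and lies wholly inside the span of SOX2-OT. What lies behind this 0 was not tested, so it is not read as a level. LIN28A made up the largest part of the sum (1757 CPM in knockdown, 1541 in control). POU5F1, singled out after its values were seen, was higher in all 3 knockdown libraries (133 ± 16.9 against 99.8 ± 13.3 CPM, n = 3, log2 fold change 0.42 ± 0.10, edgeR adjusted p = 0.0948), and passed in 3 of 16 alternatives. LIN28A was also higher in all 3 (log2 fold change 0.19 ± 0.07, edgeR adjusted p = 0.269), as were 9.55% of all genes tested. LIN28A passed in 1 of 16 alternatives. DPPA4 lay the other way, lower in all 3 (899 against 941 CPM, log2 fold change -0.06, edgeR adjusted p = 0.683, background 9.37%). For NANOG and TDGF1 the groups overlapped. For 6 naive-state markers the sum was 64.6 to 72.1 CPM against 65.0 to 69.4, with KLF17, a defining one, at 1 to 10 counts. Within that sum DNMT3L, also singled out afterwards, was at 1.41 ± 0.0510 CPM in knockdown and 2.33 ± 0.700 in control libraries (n = 3, log2 fold change -0.72 ± 0.27, edgeR adjusted p = 0.258) without overlap (background 9.37%). Its values rest on 36 to 85 counts per library, for which counting error alone gives a coefficient of variation of 13.3%. DPPA5, DPPA3 and TFCP2L1 had log2 fold changes of 0.17, 0.12 and 0.09 and KLF4 of -0.04, each with overlap. For 5 primed-state markers the sum was 206 to 227 CPM against 206 to 215, with THY1, which lies wholly inside USP2-AS1, listed at 0. For 8 markers of differentiated cells it was 25.1 to 27.7 CPM against 22.6 to 27.7. COL1A1, at 18.8 to 24.8 CPM, made up the largest part, and 5 of the 8 had counts in every library. SOX17, CDX2 and HAND1 had 0 to 4 counts. Knockdown library a was highest for GATA6 (24 counts against 5 to 9 in the others) and GATA4 (48 against 14 to 24). The part of these marker levels in the results below was not tested.

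None of the enzyme genes passed the test. In edgeR's quasi-likelihood fit over 19721 genes, 0 of the 8 members that could be tested had a Benjamini-Hochberg adjusted p under 0.05 (background: 155 genes, 0.786%), and 1 had an unadjusted p under 0.05 (background 14.3% in either direction, 7.57% lower in knockdown). DESeq2 also called 0 of them, as did limma-voom. The values of the 2 groups did not overlap for 2 members, against a background of 18.9%, which for 8 genes is a share near that of all genes. The ninth row, RNASEH2A, was listed at 0 in all 6 libraries and was not tested. In RNA from whole cultures, fewer cells with a transcript and less of it per cell cannot be told apart.

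**Figure D1:**
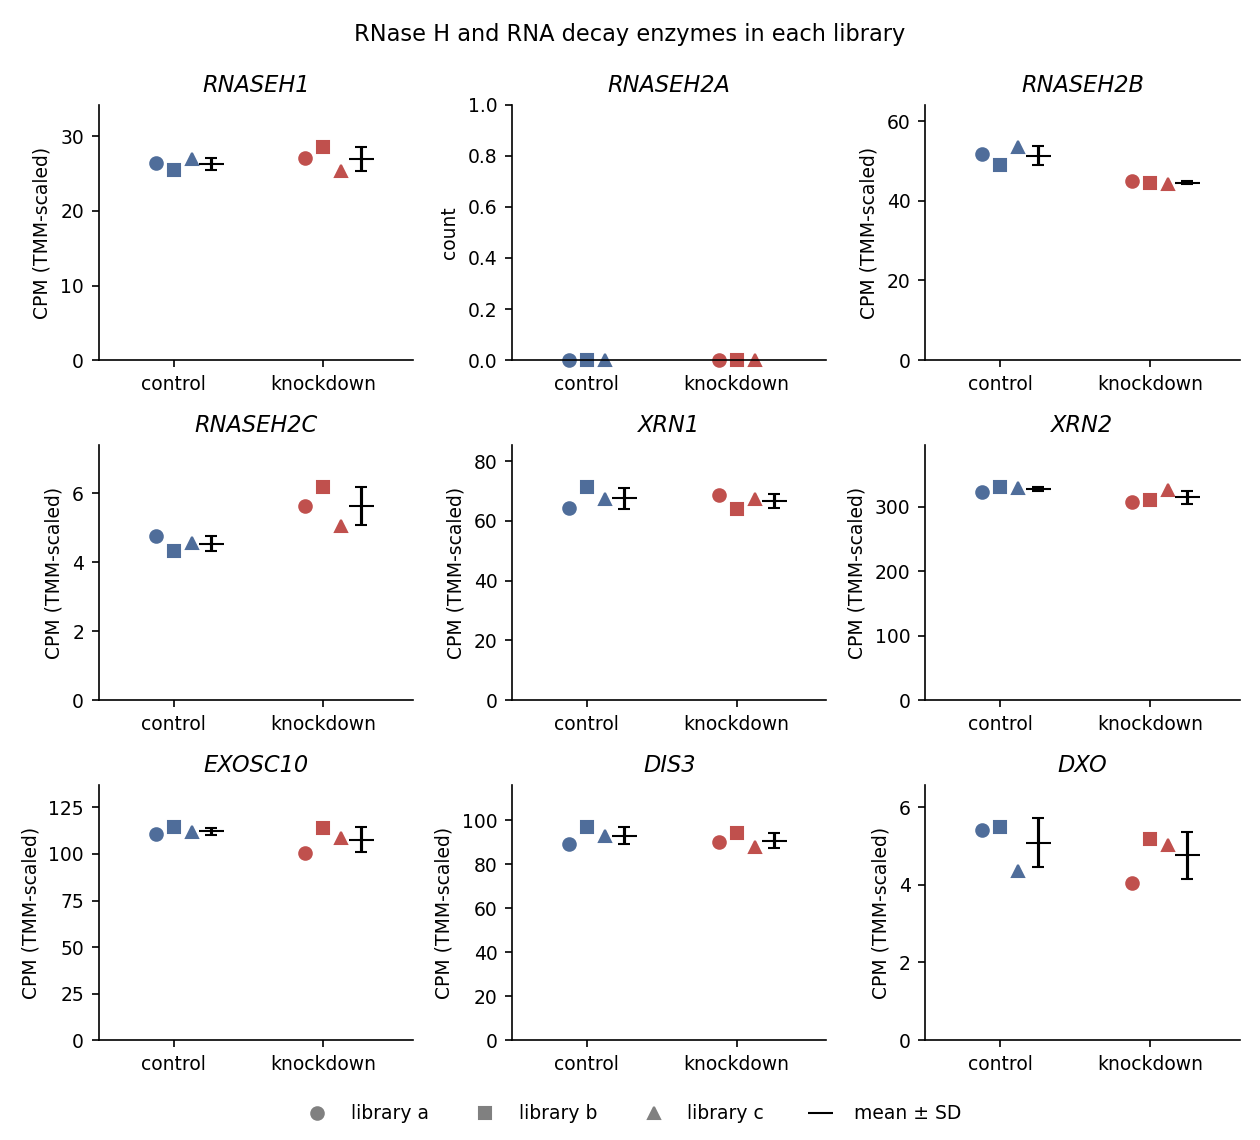
Level of each enzyme gene in the 6 libraries (y axis, TMM-scaled CPM from 0; for RNASEH2A, raw counts), control in blue and knockdown in red, with the mean and SD of 3 libraries at the right of each group. RNASEH2B is lower and RNASEH2C higher in all 3 knockdown libraries, the other 6 tested genes overlap between groups, and RNASEH2A is at 0 throughout.

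RNASEH1 (ENSG00000171865.9, GRCh38 chr2:3544793-3558616, minus strand) encodes the enzyme on which gapmer cleavage is thought to depend most. It was at 27.1, 28.5 and 25.4 CPM in knockdown a to c and at 26.5, 25.5 and 27.0 CPM in control a to c. The groups overlapped, with the highest and the lowest value both in the knockdown group. Mean levels were 27.0 ± 1.59 in knockdown and 26.3 ± 0.774 CPM in control (SD, n = 3 each). On the log2 scale the difference was 0.04 ± 0.08 (SE; edgeR adjusted p = 0.861), with a 95% interval of -0.12 to 0.20, or -8.30% to 15.1%.

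RNase H2 was covered in an uneven way. RNASEH2A (ENSG00000104889.6, chr19:12806556-12815201, plus strand), the catalytic subunit, had a count of 0 in each of the 6 libraries. Its whole span lies within that of HOOK2 (chr19:12763003-12872740, minus strand) in GENCODE release 29. The other genes with a row inside the HOOK2 span were also at 0 in every library, among them PRDX2, an abundant peroxiredoxin, and the transcription factor gene JUNB. HOOK2 itself had 867 to 1096 counts. The same held across the table: of 701 protein-coding genes lying inside the span of another protein-coding gene, 652 (93.0%) were at 0 in all libraries, compared with 916 of 13324 genes (6.87%) with no such overlap and 293 of 4161 (7.04%) that overlap in part. The share was as high, 278 of 295 (94.2%), for genes on the opposite strand whose exons do not overlap those of the gene around them. What lies behind the 0 of RNASEH2A was not tested. It is not read here as a measure of expression, and no ratio to it was formed.

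**Figure D2:**
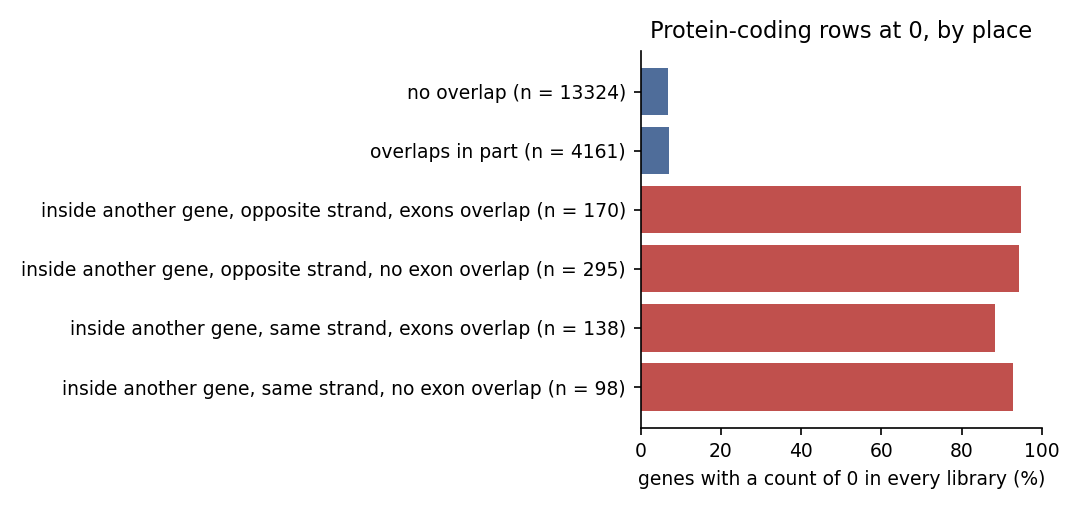
Share of protein-coding rows with a count of 0 in every library (x axis, percent), by where the gene lies relative to other protein-coding genes of GENCODE 29. Bars for genes inside another gene, on either strand and with or without exon overlap, lie between 88.4% and 94.7%, and those for other genes at 6.87% and 7.04%.

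RNASEH2B (ENSG00000136104.20, chr13:50909678-51024120, plus strand), an accessory subunit that the complex needs for activity in cells, showed the smallest p of the members. Its level was 44.9, 44.5 and 44.2 CPM in knockdown a to c, against 51.9, 48.9 and 53.4 CPM in control a to c. All 3 knockdown values lay below all 3 controls, as was the case for 9.37% of all genes tested. The means were 44.6 ± 0.337 and 51.4 ± 2.30 CPM (SD, n = 3 each), and the log2 fold change was -0.21 ± 0.07 (SE; unadjusted p = 0.00815, edgeR adjusted p = 0.183), which does not pass the threshold. The 95% interval was -0.35 to -0.06. Over 16 alternative settings the estimate ran from -0.25 to -0.14 and the adjusted p from 0.0982 to 0.563. Without knockdown library a it was -0.21 (edgeR adjusted p = 0.266). The antisense gene RNASEH2B-AS1 overlaps the start of RNASEH2B and GUCY1B2 its end. These had 2.20 and 3.32 CPM in the knockdown group against 2.67 and 2.75 CPM in controls (edgeR adjusted p = 0.579 and 0.571), and their part in the RNASEH2B values was not tested.

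RNASEH2C (ENSG00000172922.9, chr11:65714005-65720947, minus strand), the other accessory subunit, lay in the opposite direction. It had 5.64, 6.17 and 5.06 CPM in knockdown a to c and 4.75, 4.32 and 4.57 CPM in control a to c. The knockdown values were all above the controls (background 9.55%), by a margin smaller than the spread within the knockdown group. The log2 fold change was 0.31 ± 0.14 (SE; 95% interval 0.00 to 0.62, unadjusted p = 0.05002, edgeR adjusted p = 0.351). These values rest on 128 to 206 counts per library, for which counting error alone gives a coefficient of variation of 8.04%. Of the RNASEH2C span, 80.7% is shared with KAT5 on the other strand, and KAT5 had 11.2 CPM in both groups.

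RNASEH2B was lower and RNASEH2C higher in all 3 knockdown libraries, so their count ratio had to be apart between groups. It was 7.96, 7.21 and 8.73 in knockdown a to c and 10.9, 11.3 and 11.7 in control a to c. The ratio of RNASEH1 to RNASEH2B was 0.604, 0.641 and 0.573 in knockdown against 0.510, 0.521 and 0.505 in control libraries, without overlap. Both ratios were chosen after the values had been seen and carry no test. They restate the single-gene values, and the share of all gene pairs that lie apart was not counted.

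None of the 5′-to-3′ exonucleases passed the test. XRN2 (ENSG00000088930.7, chr20:21303304-21389827, plus strand), which degrades the downstream product of nuclear cleavage and acts in transcription termination, had the most counts of the 9 genes, 8246 to 11974 per library. It was at 307, 311 and 326 CPM in knockdown a to c and at 323, 330.1 and 329.6 CPM in control a to c. Knockdown libraries a and b were below every control and library c was within their range. The log2 fold change was -0.06 ± 0.06 (SE; 95% interval -0.19 to 0.08, edgeR adjusted p = 0.719). Without knockdown library c it was -0.10 (edgeR adjusted p = 0.266).

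XRN1 (ENSG00000114127.10, chr3:142306607-142448062, minus strand), the main exonuclease of cytoplasmic mRNA decay, was at 68.6, 64.0 and 67.5 CPM in knockdown a to c and at 64.1, 71.2 and 67.5 CPM in control a to c. The groups overlapped throughout, with a log2 fold change of -0.02 ± 0.07 (SE; 95% interval -0.16 to 0.13, edgeR adjusted p = 0.925). The count ratio of XRN2 to XRN1 was 4.48, 4.86 and 4.84 in knockdown and 5.04, 4.64 and 4.89 in control libraries, again with overlap.

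DXO (ENSG00000204348.9, chr6:31969810-31972292, minus strand), which removes incomplete caps and digests the RNA behind them, was poorly covered at 115 to 173 counts per library. Its level was 4.05, 5.18 and 5.03 CPM in knockdown a to c and 5.42, 5.48 and 4.35 CPM in control a to c. Knockdown library a and control library c were both low, and without knockdown library a the log2 fold change was 0.01. The log2 fold change was -0.09 ± 0.16 (SE; 95% interval -0.44 to 0.26, edgeR adjusted p = 0.843), so a change of up to 26.4% lower or 19.7% higher lies within the interval. STK19 covers 48.4% of the DXO span on the other strand and was at 9.32 CPM in knockdown against 10.2 CPM in control libraries (edgeR adjusted p = 0.625).

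Neither nuclease of the exosome passed the test. EXOSC10 (ENSG00000171824.13, chr1:11066618-11099881, minus strand), the nuclear and nucleolar 3′ exonuclease known as RRP6, was at 101, 114 and 108 CPM in knockdown a to c and at 111, 114 and 112 CPM in control a to c. Knockdown library a was the lowest of the 6, and without it the log2 fold change went from -0.06 ± 0.07 (SE; 95% interval -0.20 to 0.08, edgeR adjusted p = 0.734) to -0.01. DIS3 (ENSG00000083520.14, chr13:72752169-72782096, minus strand), the processive exonuclease bound to the exosome core in the nucleus, was at 90.1, 94.4 and 87.6 CPM in knockdown and 88.9, 96.7 and 92.8 CPM in control libraries. Its log2 fold change was -0.03 ± 0.06 (SE; 95% interval -0.17 to 0.11, edgeR adjusted p = 0.860). The count ratio of EXOSC10 to DIS3, chosen after the data had been seen, was 1.12, 1.21 and 1.24 in knockdown and 1.24, 1.18 and 1.21 in control libraries.

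**Figure D3:**
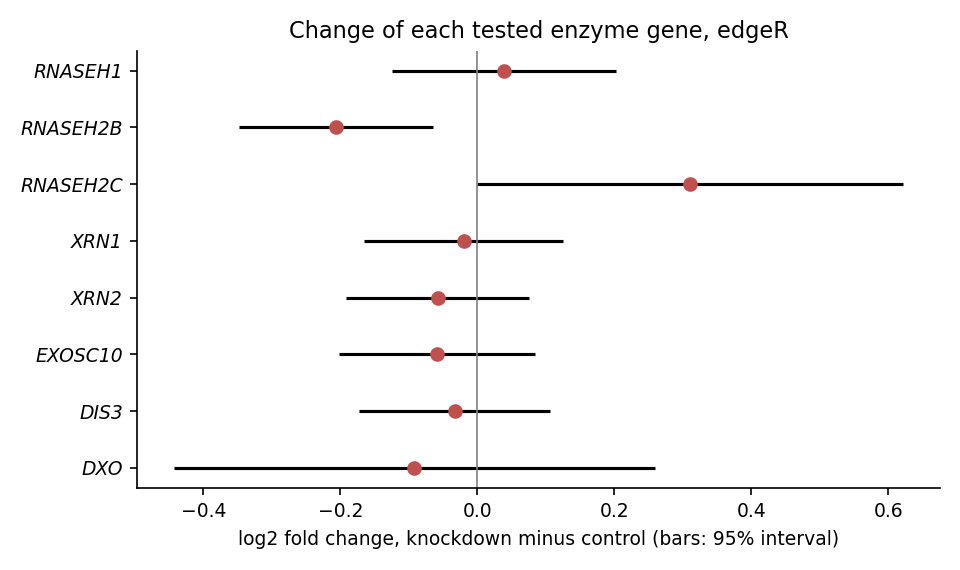
Log2 fold change of the 8 tested enzyme genes (x axis, knockdown minus control; points are edgeR estimates and bars their 95% intervals, not adjusted for multiple tests). The interval of RNASEH2B lies below 0, that of RNASEH2C starts at 0.00, and the other 6 span 0, widest for the low-count genes RNASEH2C and DXO.

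Among the 8 tested members, 2 had a log2 fold change above 0 and 6 below, with a median of -0.05. Over all genes tested, 10736 lay above 0 and 8985 below, with a median of 0.02. RNASEH2B and RNASEH2C were further from 0 than 87.1% and 81.7% of the genes whose mean count was within 1.5-fold of their own. The other 6 were nearer to 0 than most such genes, with 13.0% (XRN1) to 38.2% (XRN2) of those genes nearer still. The coefficient of variation between control libraries ran from 1.14% (XRN2) to 12.5% (DXO), with XRN1 at 5.21% and RNASEH2C, at far fewer counts, at 4.79%. Between knockdown libraries it ran from 0.756% (RNASEH2B) to 12.9% (DXO). It was larger than in controls for RNASEH2C (9.85%), XRN2 (3.23%), EXOSC10 (6.29%), RNASEH1 (5.87%) and DXO, and smaller for RNASEH2B, XRN1 and DIS3. Counting error alone gives 2.61% for RNASEH2B and 8.04% for RNASEH2C. The RNASEH2B spread in knockdown and the RNASEH2C spread in controls lie below these, so such small spreads from 3 libraries carry little weight.

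Levels of different genes were compared per kilobase of annotated exon (CPM per kb, union of GENCODE 29 exons). In control libraries XRN2 stood highest at 95.3 ± 1.09, followed by EXOSC10 at 18.7 ± 0.310, RNASEH1 at 9.18 ± 0.270, DIS3 at 8.57 ± 0.358, XRN1 at 5.64 ± 0.294, DXO at 2.05 ± 0.255, RNASEH2B at 1.95 ± 0.0876 and RNASEH2C at 0.891 ± 0.0427 (SD, n = 3). RNASEH1 and DIS3 overlapped in their library values, as did DXO and RNASEH2B. The order was the same in knockdown libraries. XRN2, EXOSC10, RNASEH1 and DIS3 kept these 4 ranks with the longest transcript as the length and with exons outside other genes as the length. Positions below them moved. RNASEH2B, for example, was at 7.06 per kb of its longest transcript there, above XRN1 at 6.66. When the whole gene span outside other genes was the length, XRN2 was at 3.805, EXOSC10 at 3.95 and DXO at 3.97, so the order of levels depends on the length chosen. Whether intron reads were counted is not given in the sources used here. Of genes inside another gene on the opposite strand with no shared exon, 94.2% were at 0, and the way of counting behind this was not tested. With the counting unknown, the exon-based levels are uncertain as a comparison between genes, and fold changes of a single gene do not depend on the length.

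The share of each gene that no other gene covers may limit these levels, which was not tested. Of the annotated exon length, 100% of XRN1, 95.1% of XRN2 and 92.0% of RNASEH2B lay outside other genes. The shares were 62.5% for DIS3, 57.0% for RNASEH1, 54.4% for EXOSC10, 51.6% for DXO, 26.3% for RNASEH2C and 0% for RNASEH2A. By whole span they were 76.2% for RNASEH1, 85.5% for EXOSC10, 86.4% for DIS3, 73.2% for RNASEH2B and 19.3% for RNASEH2C. No row of the count table was matched to the genes that overlap RNASEH1 or EXOSC10, so their shares may not bear on the counts.

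The promoters were compared as a feature that the choice of genes did not use. RefSeq windows of 250 bases before to 50 after the start (GRCh38.p14) were found for all 9 genes, 11 windows in all. The ratio of observed to expected CpG was 0.620 to 1.10, and each of the 11 was above 0.6, as were 48.8% of 35116 such windows. With both strands searched, the GC box GGGCGG occurred in 6 of the 9 genes (45.0% of all windows), the CCAAT box CCAAT in 5 (34.6%), the ETS-type core CCGGAAG in 3 (10.3%), and TATAAA (11.5%) and an NRF1-type motif (5.78%) in 0. A member counted if any of its windows matched, while the percentages are shares of windows, so the units differ. The background windows were not limited to genes tested here. Matches of different motifs overlapped in 0 places. The 3 stretches with the ETS-type core are shown because the motif is the least frequent of those found. Each is 30 bases on the gene's own strand, 5′ to 3′, with the motif, or its reverse complement in DXO, in capitals. They lie at chr19:12806565-12806594 for RNASEH2A, chr13:72782121-72782150 for DIS3 and chr6:31972328-31972357 for DXO. A match is a description of the letters only, and neither DIS3 nor DXO passed the test.
RNASEH2A: ccgcggattggCCGGAAGcaggcgccgctt
DIS3: ccgCCGGAAGtcaactctcccggatgttcc
DXO: gaaaatagggtCTTCCGGcgcagagcagtg

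Related genes of RNA decay and hybrid handling were then counted. Of 60 such genes in 6 lists, 56 could be tested and 0 passed an adjusted p of 0.05 in edgeR, with 6 (10.7%, against 14.3% of all genes) at an unadjusted p under 0.05, 5 higher and 1 lower; DESeq2 and limma-voom also called 0. The median log2 fold change over the 56 was 0.00, and 27 lay above and 29 below 0. The groups did not overlap in 11 of them, or 19.6%, against 18.9% of all genes, so both shares are near or below the background.

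The exosome core, the ring and cap of proteins on which EXOSC10 and DIS3 sit, had 7 of 9 genes tested, with log2 fold changes between -0.07 and 0.12 and 0 at an unadjusted p under 0.05. EXOSC2 had the smallest p, at 68.2 ± 2.85 CPM in knockdown and 62.6 ± 2.60 in control libraries (n = 3; edgeR adjusted p = 0.421), followed by EXOSC9 at 90.2 ± 8.09 and 94.6 ± 3.71 (edgeR adjusted p = 0.732). EXOSC3 and EXOSC5 were listed at 0 in every library, and both lie wholly inside another annotated gene. That position does not always go with a 0: of the related genes listed below, LSM7 (inside AC005258.1) had 813 to 1132 counts and TREX1 (inside ATRIP) 57 to 100.

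Of the nuclear cofactors that bring RNA to the exosome, 11 of 12 were tested, 2 higher and 9 lower than 0 in log2 fold change with a median of -0.06. Over all genes tested, 10736 lay above and 8985 below 0. MTREX, TENT4A, TENT4B and MPHOSPH6, each below 0, kept their sign in 15 of 16 alternatives. ZCCHC7, part of the TRAMP complex, was at 130 ± 24.2 CPM in knockdown and 156 ± 12.2 in control libraries (n = 3; log2 fold change -0.26 ± 0.11; edgeR adjusted p = 0.324). Without knockdown library c it passed, at -0.44 (edgeR adjusted p = 0.00589), a fit in which 6.399% of all genes passed and 2 of 57 related genes did. PABPN1, the nuclear poly(A)-binding protein, was at 45.6 ± 2.99 against 39.5 ± 3.81 CPM (edgeR adjusted p = 0.288), with 83.3% of its span under other genes. For both genes the groups overlapped. RBM7 had 2 to 15 counts and was not tested.

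The cytoplasmic 3′ decay genes had a median of 0.03 over 6. SKIC2 (row SKIV2L), the helicase of the SKI complex and the next gene to DXO, was at 37.5 ± 2.75 CPM in knockdown and 33.4 ± 1.92 in control libraries (n = 3; log2 fold change 0.17 ± 0.08; edgeR adjusted p = 0.348). DIS3L, the cytoplasmic relative of DIS3, was at 39.2 ± 3.28 against 37.8 ± 0.981 CPM (edgeR adjusted p = 0.784).

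Decapping and 5′ decay genes had a median of 0.00 over 17. NUDT3, a Nudix hydrolase with decapping activity, had the smallest p of the 56 genes, at 15.1 ± 0.513 CPM in knockdown and 11.98 ± 0.817 in control libraries (n = 3; log2 fold change 0.34 ± 0.09; unadjusted p = 0.00379, edgeR adjusted p = 0.134). LSM4, a subunit of the LSM ring, was at 87.9 ± 3.54 against 77.5 ± 6.26 CPM (log2 fold change 0.18 ± 0.07; edgeR adjusted p = 0.282). The groups did not overlap for either gene, and neither passed. Other annotated genes together cover 100% of the NUDT3 span, so how its reads were assigned is uncertain.

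The XRN2 partners, among them proteins that bind XRN2 or act with it at transcript ends, had a median of 0.07 over 6 genes and 0 at an unadjusted p under 0.05. CDKN2AIP, an XRN2-binding protein, was at 23.4 ± 2.40 CPM in knockdown and 21.6 ± 0.878 in control libraries (n = 3; edgeR adjusted p = 0.601), and CPSF3, the endonuclease that cuts pre-mRNA at the poly(A) site, at 106 ± 6.08 against 101 ± 3.74 (edgeR adjusted p = 0.665).

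Genes that handle RNA-DNA hybrids or ribonucleotides in DNA had a median of 0.02 over 9 tested. LIG1, the ligase that seals nicks after ribonucleotide excision, was at 70.3 ± 3.08 CPM in knockdown and 62.2 ± 1.55 in control libraries (n = 3; log2 fold change 0.18 ± 0.06; edgeR adjusted p = 0.245), with all knockdown values above the controls. BRIP1, a helicase, was at 100.4 ± 13.5 against 113 ± 2.34 CPM (log2 fold change -0.17 ± 0.09; edgeR adjusted p = 0.408) and passed without knockdown library c, at -0.30 (edgeR adjusted p = 0.0151), the other related gene called in that fit. FEN1, the flap nuclease, had 0 to 6 counts and was not tested; other genes cover 96.2% of its span.

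**Figure D4:**
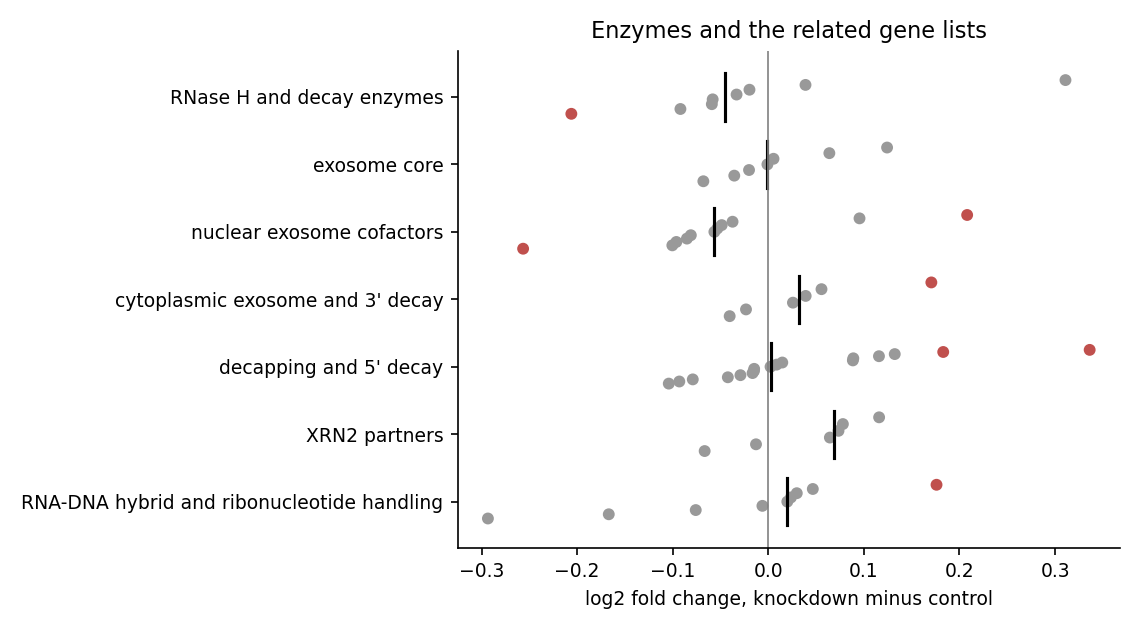
Log2 fold change (x axis, knockdown minus control) of each tested gene in the enzyme set and the 6 related lists; red points have an unadjusted p under 0.05, grey points do not, and black lines are list medians. All points lie between -0.29 and 0.34, and none passed the adjusted threshold.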

How the data were processed

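The authors deposited a table of raw counts per gene symbol for 6 libraries (3 per group), made from total RNA with a directional NEBNext kit, per the labels' protocols. The submitters' processing notes name Trimmomatic 0.39, STAR 2.7.8a, featureCounts, Subread 2.14.2 and build hg38. The annotation, the strand setting and the handling of reads over several genes are not given in the sources used here. Differences were tested with edgeR 4.0.16 in R 4.3.3 (filterByExpr, TMM, glmQLFit and glmQLFTest, group as the only term, two-sided, Benjamini-Hochberg over 19721 genes), which held 99.9% of counts. CPM values are TMM-scaled. DESeq2 1.42.0 and limma-voom (limma 3.58.1) were alternatives. Places, lengths and overlaps come from GENCODE 29 (32742 rows matched, 1317 by an older symbol). The procedure was tested on simulated counts. The changes put in were larger than that of any member, so this does not show whether changes as small as theirs would be called. All 9 members are named, and from each list the 2 genes with the smallest p and any past the threshold. The members and lists were chosen with earlier results of these data known.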

Additional observations from a re-analysis of the deposited data

How the results depend on the processing

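Across 16 alternatives (other scalings, tests and filters, gene span or GC trend removed, a replicate block, each library left out), 0 members passed the threshold, and the smallest adjusted p of any member was 0.0982 (RNASEH2B without knockdown library c). RNASEH2B, RNASEH2C, XRN2 and EXOSC10 kept their direction in all 16. The sign differed in 8 of 128 refits, each of a log2 fold change near 0. XRN1 was at 0.0079 with library size alone and 0.012 with the span trend removed. Removal of the GC trend put XRN1 at 0.048 and DIS3 at 0.033. Leaving out each library gave -0.0094 to 0.061 for RNASEH1, -0.048 to 0.013 for XRN1 and -0.20 to 0.010 for DXO. The median over the members was 0.0047 with the GC trend removed. For each of these the cause was not tested. Of the related genes, 1 passed with no low-count filter (ZCCHC7), and 0 to 2 when each library was left out, 2 without knockdown library c. Over all genes the number of calls was 155 (0.786% of 19721 tested). It was 536 with DESeq2 (4.05% of 13219) and 1064 with no low-count filter (3.29% of 32300). It was 263 with the span trend removed (1.65% of 15946) and 393 with the replicate block (1.99% of 19721). It ran from 26 (without control library a) to 1309 (without knockdown library c) over the fits that leave out 1 library. Libraries with the same letter were not treated as pairs: their deviations from the group means correlated at 1.23e-05 (a), 0.116 (b) and -0.0251 (c). The replicate block gave 0 members and -0.20 for RNASEH2B (edgeR adjusted p = 0.191). Depth limits RNASEH2C (128 to 206 counts) and DXO (115 to 173 counts) most.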

Other observations

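By their profile over the 6 libraries (Pearson r of log2 CPM among 19720 other tested genes, given as a description), the genes most like RNASEH1 were RPS14, a ribosomal protein gene (r = 0.997), AKIP1 (r = 0.989) and RBMY2GP (r = 0.979). RPS14 was at 331, 363 and 288 CPM in knockdown a to c and at 316, 297 and 329 CPM in control a to c. With 6 points and this many genes, a high r carries little weight, and RBMY2GP was under 1 CPM. Among the enzymes, the pairs most alike were RNASEH1 and RNASEH2C (r = 0.735), EXOSC10 and DXO (r = 0.718), RNASEH2B and XRN2 (r = 0.619), DIS3 and EXOSC10 (r = 0.593), and, for XRN1, DIS3 (r = 0.336). The least alike were RNASEH2C and XRN2 (r = -0.901).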
